A study of Drosophila melanogaster with 18 samples.

Results

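Flies depleted of the RNA-binding protein Tudor-SN and control flies were each compared in room air and after 6 h at 2% O2, and the quantity described here is the difference between the genotypes in that response. For every gene it was the change from normoxia to 2% O2 in knockdown flies minus the same change in control flies, on log2 of scaled FPKM plus 1, and it is called the interaction. FPKM is the number of fragments per kilobase of transcript, relative to all fragments of the library, and scaled FPKM is FPKM divided by a factor for each library. The interaction was computed from 12 of the 18 libraries of the series, 3 in each of 4 groups, for all 9921 of 17658 genes whose mean over the series was at least 1 FPKM. A value above 0 marks a gene that rose more, fell less or turned upward in knockdown flies, and a value below 0 marks the reverse. A gene was called when its adjusted p (limma, Benjamini-Hochberg over the 9921 genes) was under 0.05.

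All 4 groups were whole adult females of *Drosophila melanogaster*, 1 to 5 days old, kept at 25 °C, and all carried the same UAS-Tudor-SN RNAi transgene from Bloomington stock 34865. Control flies (w;;+/UAS-Tudor-SN RNAi) had no driver, and knockdown flies (w;;Da-GAL4/UAS-Tudor-SN RNAi) also carried daughterless-GAL4, which is active in nearly all tissues. Each library came from a pool of 10 flies, and 1 RNAi line was used. Driver-only flies were not analysed here, and effects of the driver and of losing Tudor-SN cannot be told apart.

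Tudor-SN is a conserved protein with staphylococcal-nuclease-like domains and a Tudor domain, known from RNA silencing, splicing and stress granules, the RNA-protein assemblies that form when translation is arrested under stress. Flies tolerate low oxygen through several known programmes. The transcription factor Sima, the fly HIF-alpha, induces glycolytic and tracheal genes, heat-shock factor induces chaperones, the Jun kinase pathway induces repair and detoxifying genes, and protein synthesis is reduced.

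Relative depth, read from the steps between low FPKM values, was 0.973 to 1.024 in 11 of the 12 libraries and 0.885 in knockdown 2% O2 replicate 3. That library also stood apart on the second principal component (-1.65 against -17.2 and -17.4 in the other 2 of its group). Summed scaled FPKM of 30 sarcomere genes was 9718 there against 6332 and 6359 in its group. Muscle summed to 7533 to 11710 in control normoxia, 9040 to 11010 in control 2% O2 and 5687 to 6660 in knockdown normoxia. The value of 7533 was that of control normoxia replicate 2. On the second component that library lay at 5.14, against 16.5 and 14.8 in its group. In whole-fly RNA, fewer cells of a type and less RNA per cell cannot be told apart. Of 21 testis and male accessory gland genes, 10 were at 0 in all 12 libraries and the list summed to between 3.55 and 7.89 scaled FPKM per library. Eggshell genes varied widely within groups, from 1329 to 5969 in control normoxia and from 1148 to 4113 in knockdown 2% O2. None of their 26 tested members was called in either direction (7.64% over all genes).

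The targeted gene itself had a negative interaction, with the lowest adjusted p among the 219 genes called below 0. Tudor-SN (FBgn0035121, BDGP6 3L 259043 to 264380, minus strand) had 210, 218 and 214 scaled FPKM in control normoxia and 174, 161 and 168 in control 2% O2. Knockdown flies had 18.2, 20.8 and 20.6 in normoxia and 6.06, 5.43 and 5.2 at 2% O2. The groups did not overlap. The interaction was -1.32 ± 0.11 (log2, SE, n = 3 in each of 4 groups; limma adjusted p = 2.74e-05), with a fall of 0.35 in control flies and of 1.67 in knockdown flies. The 2 knockdown groups that enter the interaction were therefore not equally depleted.

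Far more genes changed at 2% O2 in knockdown flies than in control flies. In control flies 1530 genes rose (15.4% of those tested) and 1458 fell (14.7%). In knockdown flies 2825 rose (28.5%) and 2674 fell (27.0%). The difference between the genotypes itself was called for 758 genes (7.64%), of which 539 were above 0 (5.43%) and 219 below 0 (2.21%). That split depended on scaling: 71.1% of calls were above 0 here, 58.8% with FPKM as deposited and 44.8% with quantile normalisation. Without knockdown 2% O2 replicate 3, 457 genes were called, 320 above 0 and 137 below. All 758 genes kept their direction when each of the 12 libraries was left out in turn, and 302 of them stayed called every time.

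Most of the called genes moved the same way in both genotypes, and further in knockdown flies. Of the 539 genes above 0, 311 (57.7%) rose in both genotypes. Another 188 (34.9%) rose in knockdown flies with no call in control flies, 20 fell in control flies with no call in knockdown flies, 16 fell in control flies and rose in knockdown flies, and 4 fell in both. Their median change was 0.35 in control flies and 1.02 in knockdown flies. Of the 219 genes below 0, 109 (49.8%) fell in both genotypes and 94 (42.9%) fell in knockdown flies with no call in control flies. Their median change was -0.18 in control flies and -0.59 in knockdown flies, so the negative interactions were smaller: 158 genes were called at 1 or more on the log2 scale and 34 at -1 or less.

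Genes above and below 0 were also counted by where the genotypes differed. Of the 539 genes above 0, 342 (63.5%) did not differ by the test between genotypes in normoxia and were higher in knockdown flies at 2% O2. A further 115 were lower in knockdown flies in normoxia and no longer called at 2% O2, and 44 were lower in normoxia and higher at 2% O2. Of the 219 genes below 0, 109 (49.8%) were lower in knockdown flies at 2% O2 with no call in normoxia, 58 were higher in knockdown flies in normoxia with no call at 2% O2, and 15 were higher and then lower. Over all genes tested, 585 were higher (5.9%) and 1004 lower (10.1%) in knockdown flies in normoxia, and 1157 were higher (11.7%) and 843 lower (8.5%) at 2% O2.

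The genes that control flies raised most were raised further by knockdown flies. Among the 235 genes that rose at least 2-fold in control flies, the median rise was 1.39 (log2) in control flies and 2.19 in knockdown flies, and 206 of the 235 (87.7%) had an interaction above 0, against 53.2% of all genes tested. Of those 235 genes, 82 were called above 0 and 1 below. The 122 genes that fell at least 2-fold in control flies had a median change of -1.32 in control flies and -1.11 in knockdown flies, with 11 called above 0 and 3 below. Both sets were chosen on the control change, which enters the interaction with a minus sign, so these counts are a description. Across the 9921 genes, which are not independent replicates, Pearson's r between the responses of the genotypes was 0.771; the 2 responses share no library.

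**Figure D1:**
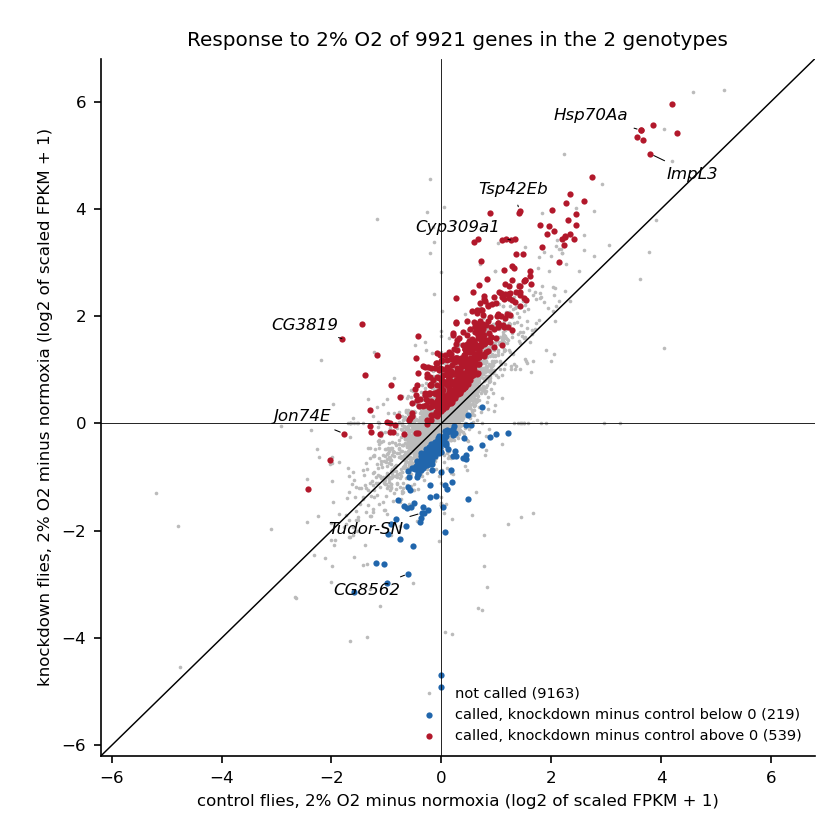
Change from normoxia to 2% O2 in control flies (x axis) and knockdown flies (y axis), log2 of scaled FPKM plus 1, 1 point per gene and means of 3 libraries per group. Points on the diagonal have an interaction of 0; the 539 genes called above 0 (red) lie above it, mostly in the upper right quadrant, and the 219 called below 0 (blue) lie below it.

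Of 10 tested members of the hypoxia list, known targets of oxygen sensing, 8 rose in control flies, and 7 rose and 1 fell in knockdown flies. The interaction was called above 0 for 3 of the 10 (5.43% of all genes were called above 0). The median interaction of the list was 0.23, against 0.02 over all genes. ImpL3, lactate dehydrogenase, had 6.81, 6.26 and 5.56 scaled FPKM in control normoxia, 93.0, 95.5 and 110 in control 2% O2, 4.69, 5.31 and 4.38 in knockdown normoxia, and 182, 162 and 226 in knockdown 2% O2. Every knockdown library at 2% O2 lay above every control library at 2% O2. Its interaction was 1.23 ± 0.28 (adjusted p = 0.0187, limma), but the call was lost without control 2% O2 replicate 1 (adjusted p = 0.0527) and with quantile normalisation (adjusted p = 0.0546).

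The FGF ligand bnl, which guides tracheal branches to hypoxic tissue, had 1.42, 1.11 and 1.62 in control normoxia and 9.29, 10.6 and 10.7 in control 2% O2. Knockdown flies had 0.757, 0.912 and 0.839 in normoxia, below every control library, and 16.8, 16.2 and 19.8 at 2% O2, above every control library. Its interaction of 1.10 ± 0.17 (limma adjusted p = 0.00149) held in every alternative tried. Hph, the prolyl hydroxylase that marks Sima for degradation in oxygen, had an interaction of 0.33 ± 0.08 (limma adjusted p = 0.0233), which was lost on leaving out control normoxia replicate 1, control 2% O2 replicate 1 or knockdown normoxia replicate 1 or 3 (adjusted p 0.0516 to 0.0661). With control 2% O2 replicate 1 left out, 1 member of the list was called. For scyl, a hypoxia-induced inhibitor of TOR signalling, control libraries went from 87.0 to 98.0 in normoxia to 117 to 132 at 2% O2, and knockdown libraries from 104 to 115 to 153 to 164. It rose in each genotype, and its interaction of 0.11 was not called (limma adjusted p = 0.455).

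The inducible Hsp70 chaperones, which refold denatured proteins, were called in every tested member. All 7 tested members, the 6 Hsp70 copies and Hsp68, were called above 0, with a median interaction of 1.76. Summed over the 7 genes, scaled FPKM was 13.2, 10.1 and 10.4 in control normoxia and 188, 185 and 264 in control 2% O2. In knockdown flies it was 11.4, 10.3 and 12 in normoxia and 684, 763 and 763 at 2% O2. The normoxic sums overlapped between genotypes, and at 2% O2 the lowest knockdown library was more than 2-fold above the highest control library. The 6 Hsp70 copies are nearly identical, so the division of reads among them is uncertain and they are better read as a sum.

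Single members followed the sum. Hsp70Aa had an interaction of 1.83 ± 0.26 (limma adjusted p = 0.00124). Hsp68, which is distinct in sequence, had 5.2, 3.4 and 5.72 in control normoxia, 31.8, 32.0 and 49.1 in control 2% O2, 2.87, 2.93 and 3.82 in knockdown normoxia and 101, 103 and 96.5 in knockdown 2% O2. Its interaction was 1.86 ± 0.25 (limma adjusted p = 8.39e-04). All 7 were called without each library in turn and under the other 2 scalings. For Hsp70Bb alone the value fell from 1.11 to 0.65 and the call was lost with a pseudocount of 0.1 (adjusted p = 0.10).

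Small heat-shock proteins, which hold unfolding proteins in solution, were called for 4 of 10 tested members, all above 0 (5.43% over all genes). All 10 had a value above 0 (median 0.59), or 8 of 10 with quantile normalisation. Hsp22, a mitochondrial member, had 63.2, 75.2 and 61.8 in control normoxia and 99.8, 113 and 120 in control 2% O2. Knockdown flies had 49.9, 50.4 and 41.2 in normoxia and 214, 196 and 215 at 2% O2. Knockdown flies were therefore lower in normoxia and higher at 2% O2, with no overlap in either (interaction 1.40 ± 0.13, limma adjusted p = 5.84e-05). Hsp23 rose from 9.92 to 12.5 up to 55.1 to 93.8 in control flies, and from 7.13 to 10.8 up to 169 to 184 in knockdown flies (interaction 1.56 ± 0.28, limma adjusted p = 0.00478). Hsp67Bc (1.42) and CG14207 (0.63) were also called. Hsp26, with 1103 to 1259 in control normoxia and 1983 to 2098 in knockdown 2% O2, was not called (interaction 0.19 ± 0.15, limma adjusted p = 0.433), and its value was -0.12 with quantile normalisation.

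Other chaperones and co-chaperones were called in both directions. Of 19 tested members of the list of heat-shock factor, Hsp83 and co-chaperones, 2 were called above 0 and 2 below (5.43% and 2.21% over all genes), and the median was 0.05. The largest value was that of stv, a BAG-domain co-chaperone of Hsc70, with 17.1, 10.5 and 16.2 in control normoxia and 29.3, 31.9 and 37.1 in control 2% O2. It had 10.5, 11.8 and 11.5 in knockdown normoxia and 86.0, 88.3 and 91.3 in knockdown 2% O2 (interaction 1.74 ± 0.21, limma adjusted p = 2.66e-04). The other 3 calls, DnaJ-1 (0.32), FKBP59 (-0.24) and l(2)tid (-0.30), were each lost without at least 8 of the 12 libraries in turn, with adjusted p from 0.0511 to 0.115. The gene l(2)tid lies wholly within l(2)not, which is on the opposite strand. Chaperones of the endoplasmic reticulum gave 1 call in 22, the stress transcription factor Xbp1 (0.38), whose call was lost on leaving out 8 of the 12 libraries.

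**Figure D2:**
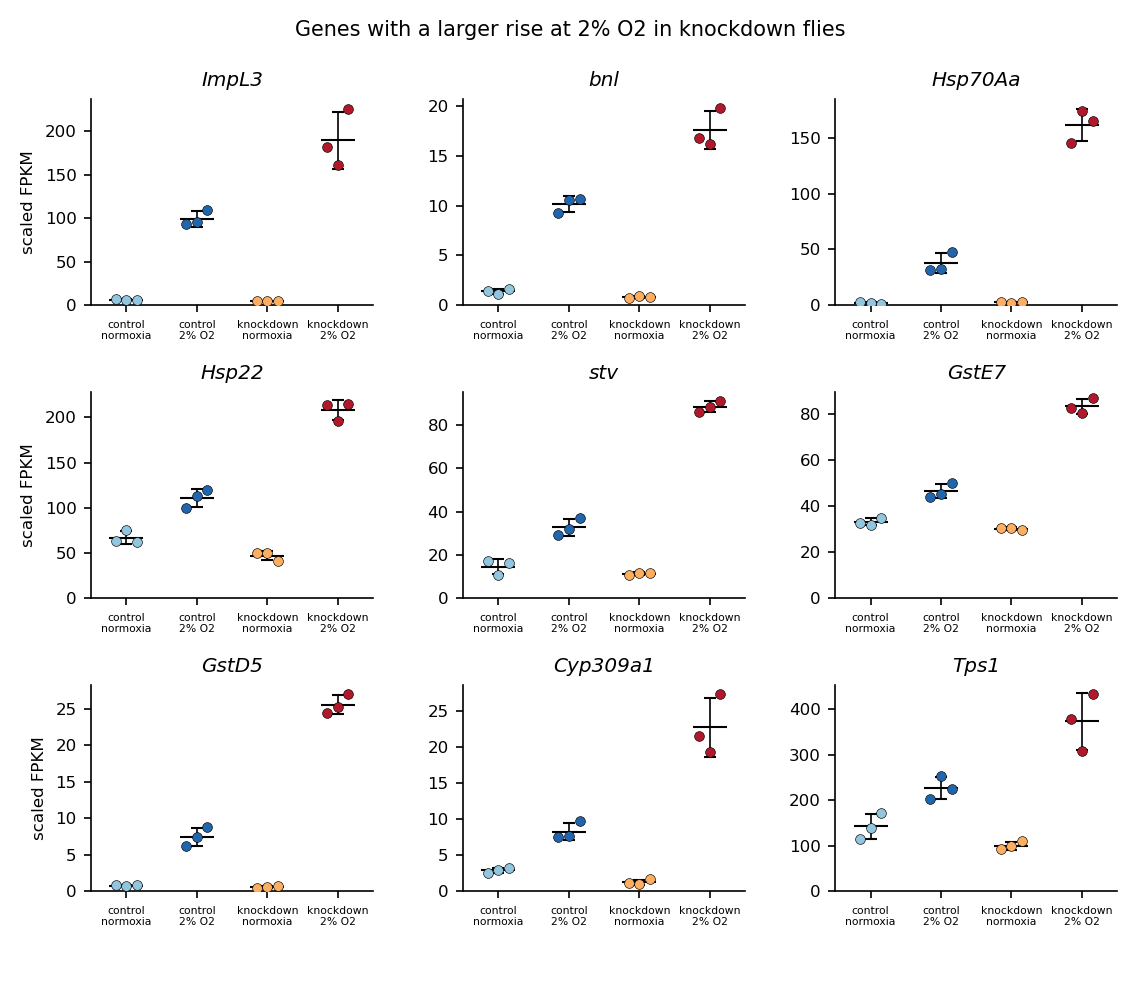
Scaled FPKM per library (points), with mean and SD (bars, n = 3), of 9 genes called above 0, in control and knockdown flies in normoxia and at 2% O2. In each panel the 3 knockdown libraries at 2% O2 lie above all other libraries, for Hsp22 at 196 to 215 against at most 120 in control flies.

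Some of the enzymes that conjugate glutathione to reactive compounds rose further in knockdown flies. Of 22 tested GstD and GstE transferases 10 were called above 0 and none below (5.43% and 2.21% over all genes). A value above 0 was found for 21 of 22 (median 0.59). The number called was 8 to 12 when each library was left out, and 8 with quantile normalisation. GstE7 had 32.7, 31.8 and 34.9 in control normoxia, 44.1, 45.4 and 50 in control 2% O2, 30.2, 30.6 and 29.5 in knockdown normoxia and 82.7, 80.4 and 86.6 in knockdown 2% O2. Its interaction of 0.96 ± 0.09 had the same adjusted p as Tudor-SN (limma, 2.74e-05). GstD5 went from 0.664 to 0.770 up to 6.25 to 8.73 in control flies and from 0.369 to 0.746 up to 24.4 to 27 in knockdown flies (interaction 1.83 ± 0.19, limma adjusted p = 1.05e-04).

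GstE3 rose little in control flies (22.1 to 32.0 up to 31.5 to 53.6) and strongly in knockdown flies (16.6 to 18.3 up to 94.4 to 107), with an interaction of 1.88 ± 0.25 (limma adjusted p = 0.00102). GstD1, the member with the highest level in control normoxia, had 1248 to 1293 there and 2416 to 2575 in knockdown 2% O2 (interaction 0.49 ± 0.09, limma adjusted p = 0.00457). GstD2, in contrast, reached 27.8 to 51.3 in control flies and 80.4 to 94.2 in knockdown flies at 2% O2 but was already higher in knockdown flies in normoxia (6.56 to 9.34 against 3.48 to 3.95), and its interaction of 0.26 was not called (limma adjusted p = 0.639).

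Cytochrome P450 enzymes, which oxidise hormones and foreign compounds, had 15 of 68 tested members called above 0 and 1 below. The shares over all genes were 5.43% and 2.21%, and the list median was 0.31. The number called above 0 was 8 to 9 without control normoxia replicate 1 or 3, control 2% O2 replicate 1, knockdown normoxia replicate 1 or knockdown 2% O2 replicate 3. Cyp309a1 had 2.46, 2.92 and 3.15 in control normoxia, 7.49, 7.59 and 9.68 in control 2% O2, 1.10, 0.911 and 1.61 in knockdown normoxia and 21.5, 19.2 and 27.3 in knockdown 2% O2 (interaction 2.16 ± 0.27, limma adjusted p = 4.39e-04). The near-identical mitochondrial P450 pair was called in both members, Cyp12d1-p at 1.54 ± 0.18 (limma adjusted p = 2.52e-04), and reads may have been divided between them. Cyp28d1 was lower in knockdown normoxia (6.71 to 8.81 against 23.5 to 30.6) and also below every control library at 2% O2, by less (16.3 to 28.3 against 31.6 to 32.5), which gave an interaction of 1.21 ± 0.32 (limma adjusted p = 0.0343).

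The antioxidant list, which includes the oxidant sensor Keap1 and its partner factor Cnc, had 5 of 25 tested members called above 0 (5.43% over all genes). Its median was 0.11, and with quantile normalisation 4 were called and the median was 0.04. The peroxiredoxin genes Prx2540-2 (1.24) and Prx2540-1 (1.25), a closely similar pair, were both called. Prx2540-2 had 13.3, 16.4 and 18.9 in control normoxia, 84.2, 73.5 and 82.4 in control 2% O2, 18.4, 18.8 and 19.6 in knockdown normoxia and 245, 172 and 262 in knockdown 2% O2 (limma adjusted p = 0.00706). Malic enzyme (Men, 0.57), the adaptor ref(2)P (0.29) and the glutathione synthesis subunit Gclm (0.25) were the other 3. Gclm fell in control flies by 0.25 and did not change by the test in knockdown flies. The iron-storage subunits Fer1HCH (0.49) and Fer2LCH (0.57), which are neighbours, were the 2 called of 11 iron genes, and the call of Fer1HCH was lost without control normoxia replicate 3 or knockdown normoxia replicate 1.

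Stress-kinase signalling genes had a median of 0.27. Of 23 tested members 8 were called above 0 and none below (5.43% and 2.21% over all genes). These included both parts of AP-1, Jra (0.36) and kay (0.64), the Jun kinase phosphatase puc (0.48), the transcription factor Ets21C (1.03), the matrix protease Mmp1 (0.82), the kinase p38c (1.40), the TNF receptor grnd (0.76) and Gadd45 (1.02). Jra had 57.3, 57.4 and 57.2 in control normoxia, 77.3, 82.9 and 83.1 in control 2% O2, 60.5, 59.0 and 54.6 in knockdown normoxia and 108, 102 and 108 in knockdown 2% O2 (limma adjusted p = 0.00299). Its normoxic values overlapped between genotypes and its values at 2% O2 did not. The number of calls was 3 to 5 without any 1 of control normoxia replicate 1 or 3, control 2% O2 replicate 1, the 3 knockdown normoxia libraries or knockdown 2% O2 replicate 3.

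The caspase gene Damm rose further in knockdown flies (18.2 to 23.3 in control 2% O2, 42.8 to 64.5 in knockdown 2% O2), with an interaction of 2.32 ± 0.41 (limma adjusted p = 0.00519). The caspase inhibitor Diap1 did so as well, from 111 to 126 in control 2% O2 to 137 to 156.2 in knockdown 2% O2 (0.54 ± 0.10, limma adjusted p = 0.00493). Socs36E, a target and inhibitor of JAK-STAT signalling, gave 1.16 ± 0.24 (limma adjusted p = 0.00997). It was the 1 called of 11 JAK-STAT and Turandot genes (5.43% of all genes were called above 0). A value above 0 was found for 4 of the 11, against 53.2% of all genes, and the median was -0.10. Diap1 and Xrp1 (0.72) were the 2 called among 17 apoptosis and DNA-damage genes (5.43% over all genes), a list without Damm and with a median of 0.01. The call of Xrp1 was lost on leaving out 7 of the 12 libraries (limma adjusted p up to 0.0966). The Turandot peptide TotA had 33.2, 39.2 and 223 in control 2% O2 and 82.6, 156.5 and 47.9 in knockdown 2% O2, groups that overlap, and it was not called (0.10, limma adjusted p = 0.972).

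Among 28 tested immune recognition and signalling genes 4 were called above 0 (5.43% over all genes), and the list median was 0.17. The 4 were pirk, a feedback inhibitor of the Imd pathway (1.5), the adaptor imd (0.72), the NF-kappaB factor Rel (0.50) and PGRP-LA (0.78). The number was 2 without control normoxia replicate 1 or 3, control 2% O2 replicate 1, knockdown normoxia replicate 1 or knockdown 2% O2 replicate 1 or 3, and the calls lost were those of Rel (adjusted p up to 0.0824) and PGRP-LA (adjusted p up to 0.0871). Rel lies wholly within a second gene, Nmdmc, on the same strand, and imd overlaps Dp1, so reads may have been divided between them. For pirk the values were 3.27, 2.71 and 2.22 in control normoxia, 5.2, 4.62 and 6.57 in control 2% O2, 2.37, 2.96 and 1.97 in knockdown normoxia, and 16.5, 15.8 and 14.7 in knockdown 2% O2 (limma adjusted p = 0.00218).

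Of 22 tested antimicrobial peptides and bomanins none was called (5.43% of all genes were called above 0 and 2.21% below). All 22 had an interaction above 0, against 53.2% of all genes, and the median was 1.02. In control flies 1 of the 22 rose and 2 fell, and in knockdown flies 14 rose and 1 fell. Their spread between libraries was large: summed scaled FPKM was 3599 to 4769 in control normoxia, 6184 to 11710 in control 2% O2, 2507 to 3990 in knockdown normoxia and 6843 to 17660 in knockdown 2% O2, with the last ranges overlapping. For AttA, control 2% O2 libraries had 4.19, 19.9 and 3.61 and knockdown 2% O2 libraries 106, 13.1 and 39.6 (interaction 2.10 ± 1.47, limma adjusted p = 0.391). Drosomycin (Drs) came nearest to the threshold, at 1.03 with an adjusted p of 0.0826 (limma).

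Genes of carbohydrate and lipid use were called at single steps. Tps1, the trehalose-6-phosphate synthase that makes the blood sugar of flies, had 115, 138 and 172 in control normoxia, 203, 253 and 224 in control 2% O2, 91.8, 98.8 and 109 in knockdown normoxia and 378, 307 and 434 in knockdown 2% O2 (interaction 1.19 ± 0.23, limma adjusted p = 0.00673). Pdk, the kinase that closes pyruvate dehydrogenase, had 60.1, 63.4 and 64.1 in control 2% O2 and 95.7, 85.4 and 102 in knockdown 2% O2, from 44.3 to 46.6 in all 6 normoxic libraries (0.56 ± 0.08, limma adjusted p = 0.00124). The triglyceride lipase bmm gave 0.34 ± 0.07 (limma adjusted p = 0.0109), with normoxic values of 33.6 to 37.4 in all 6 libraries. It was 1 of 2 called above 0 among 27 lipid storage and breakdown genes (5.43% over all genes), with a list median of 0.06. The other, Lpin (0.51), lost its call on leaving out 6 of the 12 libraries.

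In the glycolysis list 4 of 23 tested members were called above 0 (5.43% over all genes) and the median was 0.04. These 4 were ImpL3, Pdk, Men and Hex-C, and 2 of them were called without control 2% O2 replicate 1; the median was -0.06 with quantile normalisation. In the trehalose and glycogen list 3 of 13 were called above 0 (5.43% over all genes), with a median of 0.33. The number called was 1 without control normoxia replicate 3 or control 2% O2 replicate 1. None of 71 oxidative phosphorylation genes was called in either direction (median 0.12, and 0.00 with quantile normalisation), and 1 of 18 citric-acid-cycle genes was called on each side. Among autophagy genes 4 of 24 were called above 0 (5.43% over all genes), and the list median was 0.02, as over all genes. The 4 were Atg8a (0.52), Atg9 (0.37), Atg18b (0.62) and ref(2)P, which is also counted in the antioxidant list. The call of ref(2)P was lost with quantile normalisation (limma adjusted p = 0.135). Atg8a had 467 to 525 in control 2% O2 and 575 to 765 in knockdown 2% O2, and its call was lost without control 2% O2 replicate 1 (adjusted p = 0.0546).

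**Figure D3:**
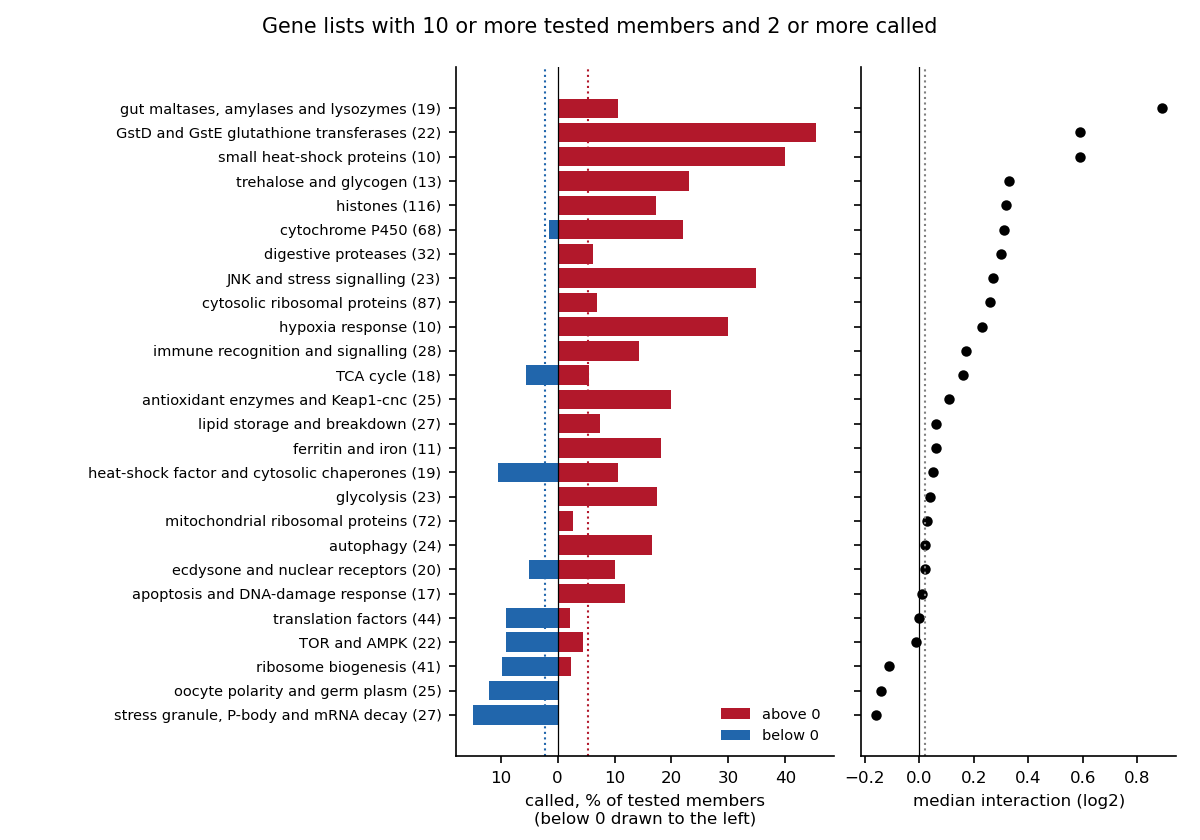
Left, for lists with 10 or more tested members and 2 or more called, the share of tested members called above 0 (red) or below 0 (blue, drawn to the left), with dotted lines at the shares over all 9921 genes (5.43% and 2.21%); right, median interaction (log2), with a dotted line at the median over all genes. Numbers in brackets are tested members; Among the lists drawn, GstD and GstE transferases, small heat-shock proteins and stress-kinase genes have the longest red bars, and stress-granule and P-body genes the longest blue bar; the 7 Hsp70 and Hsp68 genes, all called, are too few to be drawn.

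Among called genes with a group mean of at least 2 scaled FPKM, the 12 largest positive interactions were mostly in genes known by number, which include 2 pairs of neighbours. CG3819 and CG6839 lie side by side on 3L (18917581 to 18922108), and moved in opposite directions in the 2 genotypes. CG3819 had 28.9, 25.1 and 18.7 in control normoxia, 6.25, 5.00 and 7.23 in control 2% O2, 5.82, 5.52 and 2.75 in knockdown normoxia, and 14.1, 12.5 and 20.9 in knockdown 2% O2. It fell in control flies by 1.81 and rose in knockdown flies by 1.58, which gave 3.39 ± 0.42 (limma adjusted p = 5.02e-04). CG6839 fell by 1.44 and rose by 1.85 (3.29 ± 0.44, limma adjusted p = 8.77e-04). In both, knockdown flies were lower than control flies in normoxia and higher at 2% O2.

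The second pair, CG11619 and CG34256, also on 3L (18985905 to 18989815), was near 0 except in knockdown 2% O2. CG11619 had 0.311 to 0.386 in control normoxia, 0.877 to 1.53 in control 2% O2 and 0.790 to 1.48 in knockdown normoxia, against 22.6, 15.1 and 35.9 in knockdown 2% O2 (2.76 ± 0.31, limma adjusted p = 2.21e-04). CG34256 reached 15.3, 10.9 and 25.7 there (2.32 ± 0.40), a call that was lost with a pseudocount of 0.1 (adjusted p = 0.0714). CG12506 had at most 0.937 in the other 9 libraries and 13.9, 8.58 and 13.8 in knockdown 2% O2. Its interaction of 2.79 was called (limma adjusted p = 1.60e-04), and was lost with the same pseudocount (adjusted p = 0.0688).

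Tsp42Eb and CG30160, on 2R, were listed with nearly the same value in every library, so they are counted here as 1 signal. Tsp42Eb, a tetraspanin, had 31.6, 19.6 and 31.8 in control normoxia, 61.0, 74.0 and 91.0 in control 2% O2, 8.86, 15.1 and 10.1 in knockdown normoxia and 197, 169 and 199 in knockdown 2% O2 (2.54 ± 0.40, limma adjusted p = 0.00274). It lies wholly within another tetraspanin gene, Tsp42Ea. CG32302 had 50.1, 45.2 and 43.1 in knockdown 2% O2 against at most 8.51 elsewhere (3.04 ± 0.74, limma adjusted p = 0.0269), but scattered from 1.06 to 7.11 in control normoxia. Its call was lost on leaving out 7 of the 12 libraries (adjusted p 0.051 to 0.0744), that is all but control normoxia replicate 2, control 2% O2 replicates 2 and 3, knockdown normoxia replicate 2 and knockdown 2% O2 replicate 2, and also with a pseudocount of 0.1.

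Opposite responses were called for 16 genes that fell in control flies and rose in knockdown flies, and for 5 with the reverse. Besides CG3819 and CG6839, the largest of them were CG31077 (2.45), CG15199 (2.29), CG13102 (1.63) and CG15406 (1.36). CG31077 had 6.78, 4.83 and 5.22 in control normoxia and 5.58, 5.42 and 6.50 in knockdown 2% O2, with 1.49 to 2.64 in the other 6 libraries. CG15406 had 21.9 to 29.7 in control normoxia, 17.8 to 21.4 in control 2% O2, 15.9 to 18.4 in knockdown normoxia and 27.6 to 39.3 in knockdown 2% O2 (limma adjusted p = 0.00184). CG15199 differed in pattern: it was far lower in knockdown normoxia (1.36 to 2.76 against 12 to 26.2) and reached the control level at 2% O2 (3.75 to 6.51 against 5.36 to 7.01).

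In 3 genes of digestive enzymes the positive interaction came from a smaller fall in knockdown flies. Jon74E, a serine protease, had 207, 168 and 189 in control normoxia and 52.5, 59.9 and 50.6 in control 2% O2, but 166, 194 and 147 in knockdown normoxia and 155, 115 and 179 in knockdown 2% O2. It fell by 1.77 in control flies and was not called in knockdown flies (-0.19), so the interaction was 1.58 ± 0.22 (limma adjusted p = 0.00117). The lysozyme gene LysD fell from 1218 to 1508 down to 306 to 381 in control flies and from 692 to 944 down to 372 to 608 in knockdown flies (1.35 ± 0.28, limma adjusted p = 0.0109). The protease gene Ser8 gave 1.22 ± 0.26 (limma adjusted p = 0.0114). Ser8 lies wholly within CG42321, which is on the opposite strand. Mean scaled FPKM over the 12 libraries was 6.28 for Ser8 and 15.6 for CG42321, so reads may have been divided between them.

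Jon74E and Ser8 were the 2 called of 32 digestive proteases, a share near the 5.43% of all genes, and the list median was 0.30. In that list 17 fell in control flies and 13 in knockdown flies. LysD was 1 of the 2 called above 0 among 19 maltases, amylases and lysozymes (5.43% over all genes), with a median of 0.89. In that list 9 rose and 5 fell in control flies, and 12 rose and 3 fell in knockdown flies. The other, the maltase gene Mal-A1 (1.73), lost its call on leaving out 10 of the 12 libraries. Summed levels of the maltase, amylase and lysozyme list were 1960 to 2491 in control normoxia, 1713 to 1942 in control 2% O2, 1106 to 1496 in knockdown normoxia and 1346 to 2286 in knockdown 2% O2, and the part of gut content in these results was not tested.

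The 219 genes below 0 included fewer large changes. CG8562 had 37.4, 35.0 and 49.9 in control normoxia, 32.8, 21.0 and 26.3 in control 2% O2, 54.6, 55.2 and 69.6 in knockdown normoxia and 7.07, 6.98 and 9.11 in knockdown 2% O2. Knockdown flies were higher than control flies in normoxia and lower at 2% O2, without overlap (-2.20 ± 0.22, limma adjusted p = 1.45e-04). CG31681 gave -1.98 ± 0.25 (limma adjusted p = 5.33e-04), with 10.9 to 15.3 in control 2% O2 and 3.00 to 5.27 in knockdown 2% O2. CG11741 (-2.07) and CG3739 (-1.90) were low throughout, with at most 6.20 scaled FPKM in any of the 12 libraries compared, and CG3739 lies wholly within Ino80.

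Ctr1B, the copper importer of the gut, was 1 of the 58 genes below 0 that were higher in knockdown flies in normoxia with no call at 2% O2. It had 8.38, 8.36 and 9.84 in control normoxia, 6.52, 4.97 and 6.22 in control 2% O2, 35.8, 49.2 and 27.1 in knockdown normoxia and 6.33, 4.96 and 9.36 in knockdown 2% O2 (-1.76 ± 0.30, limma adjusted p = 0.00377). At 2% O2 the genotypes overlapped. FASN3, a fatty acid synthase, fell from 17.7 to 26.0 down to 9.05 to 10.5 in control flies and from 13.9 to 17.2 down to 1.02 to 3.35 in knockdown flies (-1.56 ± 0.30, limma adjusted p = 0.00663). Send1, a serine protease of the female sperm-storage organs, fell by 1.59 in control flies and 3.15 in knockdown flies (-1.56 ± 0.32, limma adjusted p = 0.00991).

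The 2 most negative values among called genes, -4.92 and -4.68, belonged to small nucleolar RNAs inside ribosomal protein genes, snoRNA:Psi18S-920 within RpL10Ab and snoRNA:Psi28S-2149 within RpS7. Both were listed at 0 in all 9 libraries outside knockdown normoxia, where the first had 18.7, 61.6 and 21.4 and the second 15.9, 51.9 and 18. A listed 0 does not show absence in these tables, since all 38 genes of the mitochondrial genome are also listed at 0. Both calls were lost on leaving out 9 of the 12 libraries, all but replicate 2 of the control groups and of knockdown 2% O2.

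Proteins of stress granules and of P-bodies, where messages are stored and decapped, gave calls below 0 and none above. Of 27 tested members none was called above 0 and 4 below (5.43% and 2.21% over all genes). A value above 0 was found for 5 of the 27, and the median was -0.16 (-0.24 with quantile normalisation). In control flies 9 of the 27 fell and in knockdown flies 19. The leading member was rin, the fly G3BP that seeds stress granules, with 160, 164 and 152 in control normoxia and 124, 106 and 124 in control 2% O2. It had 197, 192 and 188 in knockdown normoxia and 102, 112 and 86.5 in knockdown 2% O2, higher than control in normoxia and overlapping control at 2% O2 (-0.52 ± 0.11, limma adjusted p = 0.00986).

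The other 3 called members were less stable. They were tral (-0.51), a P-body scaffold, Upf2 (-0.47), a nonsense-mediated decay factor, and Edc3 (-0.32), an enhancer of decapping, whose calls were lost on leaving out 8, 7 and 8 of the 12 libraries, with adjusted p of at most 0.0887, 0.067 and 0.0966. The list kept 1 or 2 calls without control normoxia replicate 1 or 3, control 2% O2 replicate 1 or 3, any knockdown normoxia library or knockdown 2% O2 replicate 3. Of the RNA silencing list none of 16 was called (median -0.12). Of the piRNA list aub was the 1 called of 27 (-0.35), a call lost on leaving out 5 of the 12 libraries. Over all genes 2.21% were called below 0 and 5.43% above 0.

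In the list of oocyte polarity and germ plasm 3 of 25 were called below 0 (2.21% over all genes), with a median of -0.14. Other ovary lists gave 0 calls in 26 eggshell genes, 0 in 7 yolk genes and 1 in 15 follicle cell and germline genes, where 7 of the 15 were above 0. The yolk protein gene Yp1 had an interaction of 0.475 and was not called (limma adjusted p = 0.48). The translational regulator orb had 111, 116 and 119 in control normoxia, 74.5, 70.9 and 80.5 in control 2% O2, 132, 136 and 136 in knockdown normoxia and 64.3, 63.7 and 49.0 in knockdown 2% O2 (-0.58 ± 0.13, limma adjusted p = 0.0152). BicD (-0.26) and osk (-0.28) were the other 2, and 1 call was left without control normoxia replicate 1 or 3, control 2% O2 replicate 1 or 3, or knockdown normoxia replicate 1 or 3. The summed level of this list was 4515 in knockdown 2% O2 replicate 3 against 5021 and 5259 in the other 2 of its group, and 4701 to 5097 in control normoxia.

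Genes for making ribosomes fell in both genotypes, 32 of 41 in each. Of these 41, 4 were called below 0 and 1 above (2.21% and 5.43% over all genes), with a median of -0.11. Between 1 and 10 were called below 0 when each library was left out. The nucleolar protein gene mbm was the most stable, with 80.4 to 89 in control normoxia, 63.8 to 67.9 in control 2% O2, 91.7 to 101 in knockdown normoxia and 56.8 to 61.0 in knockdown 2% O2 (-0.36 ± 0.07, limma adjusted p = 0.00526). RpI135, a subunit of RNA polymerase I, gave -0.27. Translation factors had 4 of 44 called below 0 and 1 above (2.21% and 5.43% over all genes), and a median of 0.00 to 2 decimals. Between 0 and 5 of them were called below 0 when each library was left out.

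Ribosomal proteins and histones depended on scaling. Of 87 cytosolic ribosomal protein genes, 9 rose in control flies and 82 in knockdown flies. An interaction called above 0 was found for 6 of the 87 (5.43% over all genes), and the list median was 0.26. With quantile normalisation none was called and the median was 0.00. With each library left out, 1 to 21 were called. Histone genes come in many near-identical copies, among which the division of reads is uncertain: 20 of 116 were called above 0 (median 0.32), but 0 with FPKM as deposited or with quantile normalisation. The histone count was also 0 without control normoxia replicate 3, control 2% O2 replicate 1 or 3, knockdown normoxia replicate 2 or 3 or knockdown 2% O2 replicate 1 or 3, and 4 and 8 without control normoxia replicates 1 and 2.

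**Figure D4:**
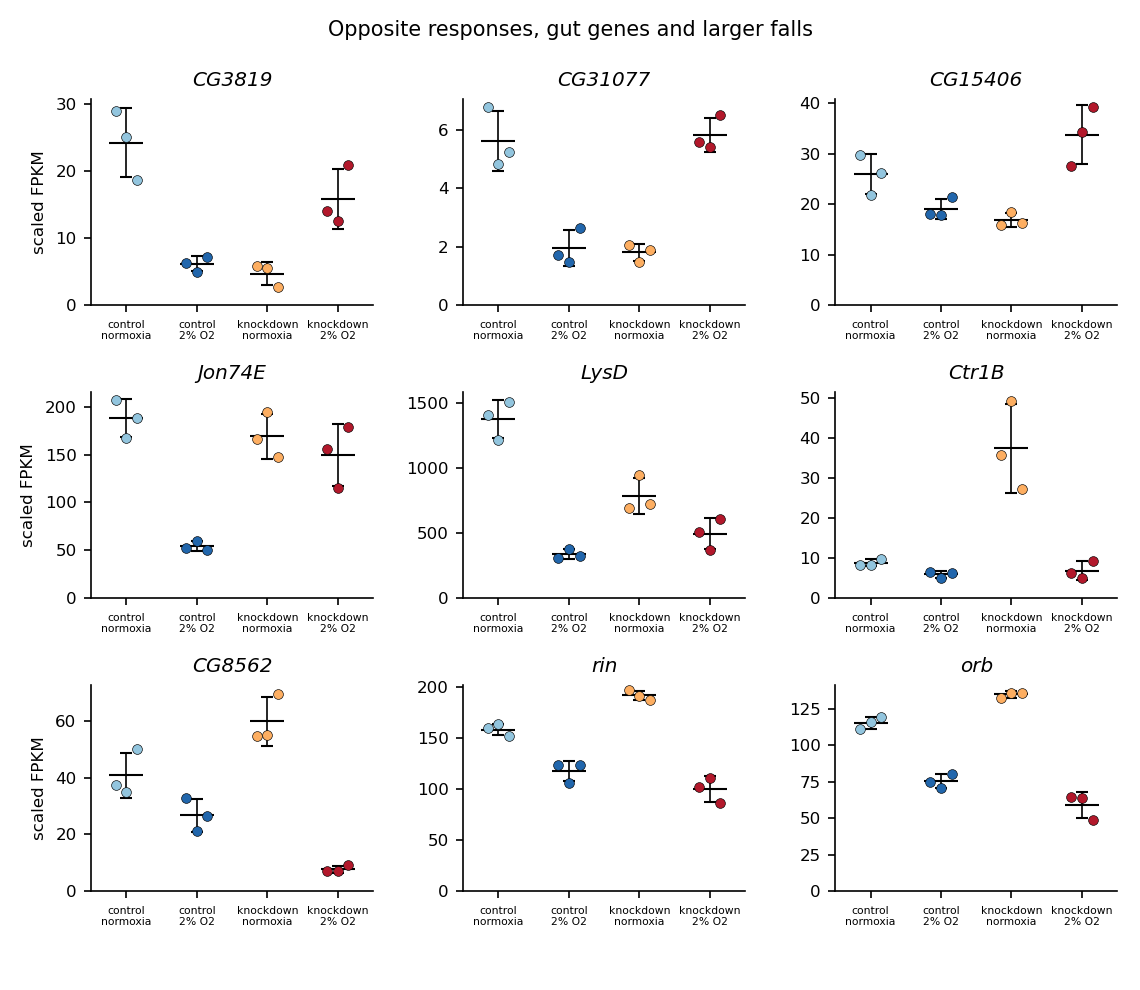
Scaled FPKM per library (points), with mean and SD (bars, n = 3), in control and knockdown flies in normoxia and at 2% O2. CG3819, CG31077 and CG15406 fall in control flies and rise in knockdown flies, Jon74E and LysD fall less in knockdown flies, and Ctr1B, CG8562, rin and orb fall further, each from a higher level in knockdown normoxia.

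The milder exposure did not give calls. The same difference of responses for 6% O2, which shares the normoxia libraries with the one described, was called for 0 of 9921 genes (0.0%), with 1017 at an unadjusted p under 0.05 against 2558 for 2% O2 (limma). For Hsp70Aa the interaction was 1.83 with 2% O2 and 0.08 with 6% O2. It was 1.10 and 0.21 for bnl, 0.96 and 0.23 for GstE7, 3.39 and 1.65 for CG3819, and -1.32 and -0.33 for Tudor-SN.

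The count of 758 called genes varied with the library left out, from 332 without control 2% O2 replicate 1 to 1302 without knockdown 2% O2 replicate 2. Leaving out control normoxia replicate 1 gave 418, replicate 2 gave 1039 and replicate 3 gave 366. For the knockdown normoxia libraries the counts were 412, 467 and 424.

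**Figure D5:**
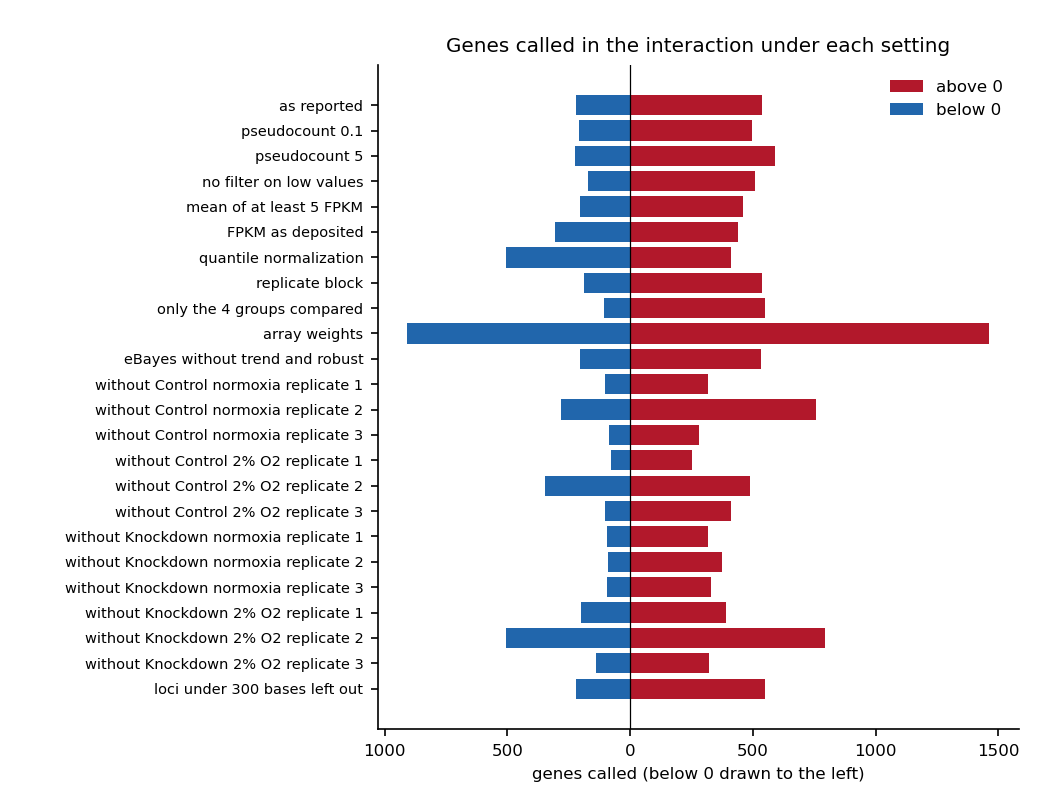
Number of genes called above 0 (red) and below 0 (blue, drawn to the left) as reported and under each of 23 other settings. Counts above 0 exceed those below 0 except with quantile normalisation (409 and 504).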

How the data were processed

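RNA was poly-dT selected, per the labels' protocols, which do not say whether strand was kept, so overlapping genes on opposite strands may share reads. The authors deposited 1 table of FPKM per library for 17658 genes on build BDGP6. Cufflinks, TopHat2 and HTSeq are named in the submitters' processing notes, and their versions are not given in the sources used here. FPKM is relative to the rest of each library, and Cufflinks divides reads among overlapping and near-identical genes. The read depth itself is unknown. Relative depth was estimated from genes below 0.6 FPKM in every library, with values near each gene's lowest taken as 1 read. Of the values chosen in this way, 91.8% to 98.2% per library lay within 0.04 (natural log) of that level. An exact 0 can be a failed estimate. Columns of other samples numbered 0. No pair of libraries had more than 2 values in common other than 0.

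Each library's FPKM was scaled by a median-of-ratios factor computed on the 9068 genes above 1 FPKM in every library. Factors ran from 0.947 to 1.04 and were lowest in knockdown 2% O2. The filter was a mean of 1 FPKM or more over 18 libraries. After adding a pseudocount of 1 and taking log2, a linear model was fitted (limma 3.58.1, R 4.3.3, 6 group means, all 18 libraries sharing 1 spread, eBayes with trend and robust), and checked on simulated data. Log2 changes understate those of low genes. SE is limma's, and SD in figures is over 3 libraries.

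Groups came from sample titles. Titles number the libraries within each group, and nothing says that they came from separate cultures, so p-values measure only the spread between these samples, which may be technical. Coordinates are 1-based, and 17303 of the 17521 identifiers found in the reference annotation had the same coordinates. The comparison, 50 gene lists and named genes were chosen with earlier results of these data known, so no list is independent support. In the 50 lists 78 entries matched no gene. Named genes were Tudor-SN, the 12 largest called interactions each way with a group mean of at least 2, 6 opposite responses, up to 4 called members of each list, and a fixed set given whatever the test found (ImpL3, bnl, scyl, Hph, the Hsp70 copies, Hsp68, Hsp22, Hsp23, Hsp26, GstD2, TotA, AttA, Yp1, Est-6). Further called members of the described lists (GstD1, Cyp28d1, puc, kay, Ets21C, Mmp1, Gclm), and Drs, were named after their values were seen. Alternatives were other pseudocounts, filters, scalings, a replicate block, the 4 groups alone, array weights, plain eBayes and each library left out. Leaving out loci under 300 bases was chosen after seeing the data. The planned promoter motif counts were not run, since no sequence was used here.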

Additional observations from a re-analysis of the deposited data

Results flagged for a closer look

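The number of genes whose response to 2% O2 differed between the genotypes was 758 by the test of the difference itself (limma, adjusted p under 0.05). Tudor-SN was among them at -1.32. Opposite responses, falling in control flies and rising in knockdown flies, gave 3.39 for CG3819, 3.29 for CG6839, 2.45 for CG31077, 2.29 for CG15199, 1.63 for CG13102 and 1.36 for CG15406.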

How the results depend on the processing

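Over 23 alternatives, 68 of the 122 called named genes kept their call and 121 their direction. Against 539 genes called above 0 and 219 below, quantile normalisation gave 409 and 504, the 4 groups fitted alone 548 and 106, and array weights 1463 and 908 (2371 in all). Leaving out each library gave 332 to 1302 in all, 254 to 795 above 0 and 78 to 507 below; the cause was not tested. The median over all genes was 0.019, -0.028 with FPKM as deposited and -0.051 with quantile normalisation.

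Among named genes, the interaction of Est-6 (0.04, not called) was -0.00536 at a pseudocount of 0.1, -0.17 with quantile normalisation and -0.12 to 0.221 without single libraries, below 0 at -0.0354, -0.0267 and -0.12. The interaction of TotA (0.10, not called) ranged from -0.388 to 0.969 without single libraries. With quantile normalisation Hsp26 was -0.122 and RpL41 was 0.0.

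Same-numbered libraries correlated from -0.325 to 0.226 over 18 pairs, 6 of them over 0.1, so the replicate numbers were not taken to pair the samples. A replicate block gave 726 calls, 539 above 0 and 187 below. Promoter motif counts were not run. Precision is limited by 3 libraries a group and an unknown read depth.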

Other observations

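A set of genes of the smooth septate junction, which seals the gut epithelium, was chosen after its values were seen, and is given as values with no test. For mesh, scaled FPKM was 7.68, 3.89 and 7.45 in control normoxia, 13.4, 14.7 and 16.4 in control 2% O2, 3.74, 6.46 and 5.41 in knockdown normoxia and 37.8, 34.0 and 35.8 in knockdown 2% O2. Knockdown libraries at 2% O2 lay above all others. The interaction was 1.44 for mesh, 1.18 for Ssk and 1.29 for Tsp2A. Whether these values hold without single libraries was not tested. Control normoxia replicate 2 was the lowest of its group for all 3 genes.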
